A study of Mus musculus with 9 samples.

Results

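The genes described here are the heme synthesis enzymes Alas1, Alas2, Alad, Uros, Urod, Cpox, Ppox and Fech, and the heme-binding protein gene Hebp1. They were chosen by symbol, and each of the 9 symbols matched 1 row among 55488 genes. RNA was sequenced from sorted cells of C57BL/6 mouse fetal liver at embryonic day 14.5, with 100 cells a library and 3 libraries in each of 3 groups. The Evi1 HSC libraries came from Tie2-Cre::ROSA-Evi1 embryos, sorted as GFP+ cells with the markers CD150+, CD48-, c-Kit+, Sca-1+ and Lin-. For WT HSC these surface markers were used without GFP, on ROSA-Evi1 embryos, which carry the allele but no Cre per the labels. WT KL libraries had that genotype too and were sorted as c-Kit+, Sca-1- and Lin-. HSC stands for haematopoietic stem cell, and the KL gate holds committed progenitors. Tie2-Cre drives recombination in endothelium and blood, and Evi1, a zinc finger transcription factor, is encoded at Mecom. No label names the embryo behind a library, so the spread between samples that the p-values measure may be technical.

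Heme is made in a chain of steps that starts in the mitochondrion, passes through the cytosol and ends in the mitochondrion again. The first step, catalysed by ALAS, joins glycine to succinyl-CoA and limits the rate, and mammals have a housekeeping isozyme (Alas1) and an erythroid isozyme (Alas2). Alad, Uros and Urod act in the cytosol, and Cpox, Ppox and Fech in the mitochondrion, where Fech inserts iron into the finished porphyrin ring. Erythroid cells of the fetal liver raise this route for haemoglobin, under transcription factors such as Gata1 and Klf1, while all cells need some heme for respiration. Hebp1 is a small cytosolic protein that binds heme and other porphyrins.

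Mecom had 209, 176 and 210 TPM across Evi1 HSC, with 161 and 114 TPM for WT HSC 1 and 2 (numbers after a group name are replicates) and 0.0107 and 0.325 TPM for WT KL 2 and 3. The library labelled WT HSC 3 and the library labelled WT KL 1 went against their labels, with 0.0167 and 90.8 TPM of Mecom, while Ly6a, which encodes Sca-1, was listed at 0 for the former and had 19.7 TPM for the latter. Egfp had 23.4 to 27.3 TPM across Evi1 HSC and at most 0.380 TPM elsewhere. Groups were kept as labelled, no library was moved, and each comparison is given with all 9 libraries and with the 7 left when these 2 are set aside. Values are TPM, which scale reads per length of gene to a fixed total and keep no depth, so the depth is unknown. Between 15422 and 18806 genes per library reached 1 TPM. Bulk RNA of this kind cannot tell fewer cells of a type from less RNA per cell.

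The sequences below lie upstream of a RefSeq start of 3 of the genes. Alas2 was taken because its level did not follow the later enzymes, and Cpox because it was the most abundant enzyme in WT KL. Hebp1 was taken because it was the member called between Evi1 HSC and WT HSC. Each runs from 200 to 51 bases before the gene's start in RefSeq (GRCm38.p6), 5′ to 3′ on the gene's strand, and holds no GENCODE exon of that gene. The Hebp1 stretch lies inside the span that GENCODE gives this gene, which starts further upstream, at base 135198022. Capitals mark GATAA (or TTATC on the other strand), core letters that GATA factors bind, and CACCC (or GGGTG), core letters that Krüppel-like factors bind. The Alas2 stretch is chrX:150547217-150547366 on the plus strand, the Cpox stretch is chr16:58670008-58670157 on the plus strand, and the Hebp1 stretch is chr6:135168266-135168415 on the minus strand.
Alas2: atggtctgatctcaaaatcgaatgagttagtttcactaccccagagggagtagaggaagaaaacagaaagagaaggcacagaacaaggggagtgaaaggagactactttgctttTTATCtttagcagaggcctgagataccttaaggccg
Cpox: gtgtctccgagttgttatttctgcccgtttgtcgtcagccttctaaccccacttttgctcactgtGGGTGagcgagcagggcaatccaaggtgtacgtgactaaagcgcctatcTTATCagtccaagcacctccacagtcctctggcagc
Hebp1: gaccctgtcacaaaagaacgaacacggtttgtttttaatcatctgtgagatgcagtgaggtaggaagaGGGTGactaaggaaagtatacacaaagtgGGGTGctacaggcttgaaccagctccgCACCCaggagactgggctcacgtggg

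The Alas2 and Cpox stretches each held GATAA once, 86 bases before the start and on the other strand. Hebp1 held none and had CACCC at 3 places, and Cpox had CACCC at 1. Of 32851 windows of the same 150 bases upstream of starts in the table, 14.6% held GATAA and 36.6% held CACCC on either strand. The 8 members found there had 11 windows, of which 3 held GATAA (Alas2, Cpox and a second start of Uros) and 2 held CACCC (Cpox and Hebp1). Fech was not used here. These matches describe letters in the windows and not binding.

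Among the 7 libraries that matched their labels, most enzymes after ALAS had their lowest levels in Evi1 HSC and their highest in WT KL, while the ALAS isozymes did not share that order. Alas1 had 10.4, 14.3 and 10.7 TPM across Evi1 HSC, 11.2 and 8.30 TPM for WT HSC 1 and 2, and 27.5 and 15.5 TPM for WT KL 2 and 3. Alas1 had 27.6 TPM for the library labelled WT HSC 3, and the library labelled WT KL 1 had 6.43 TPM. Both WT KL values lay above the other 5 of the 7 libraries, by a narrow margin over Evi1 HSC 2. Alas2 had 15.04, 5.76 and 8.06 TPM across Evi1 HSC, 6.66 and 8.35 TPM for WT HSC 1 and 2, and 4.63 and 7.34 TPM for WT KL 2 and 3. Alas2 had 5.32 TPM for the library labelled WT HSC 3, and the library labelled WT KL 1 had 26.3 TPM, the highest of the 9. The 3 groups overlapped in Alas2.

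**Figure D1:**
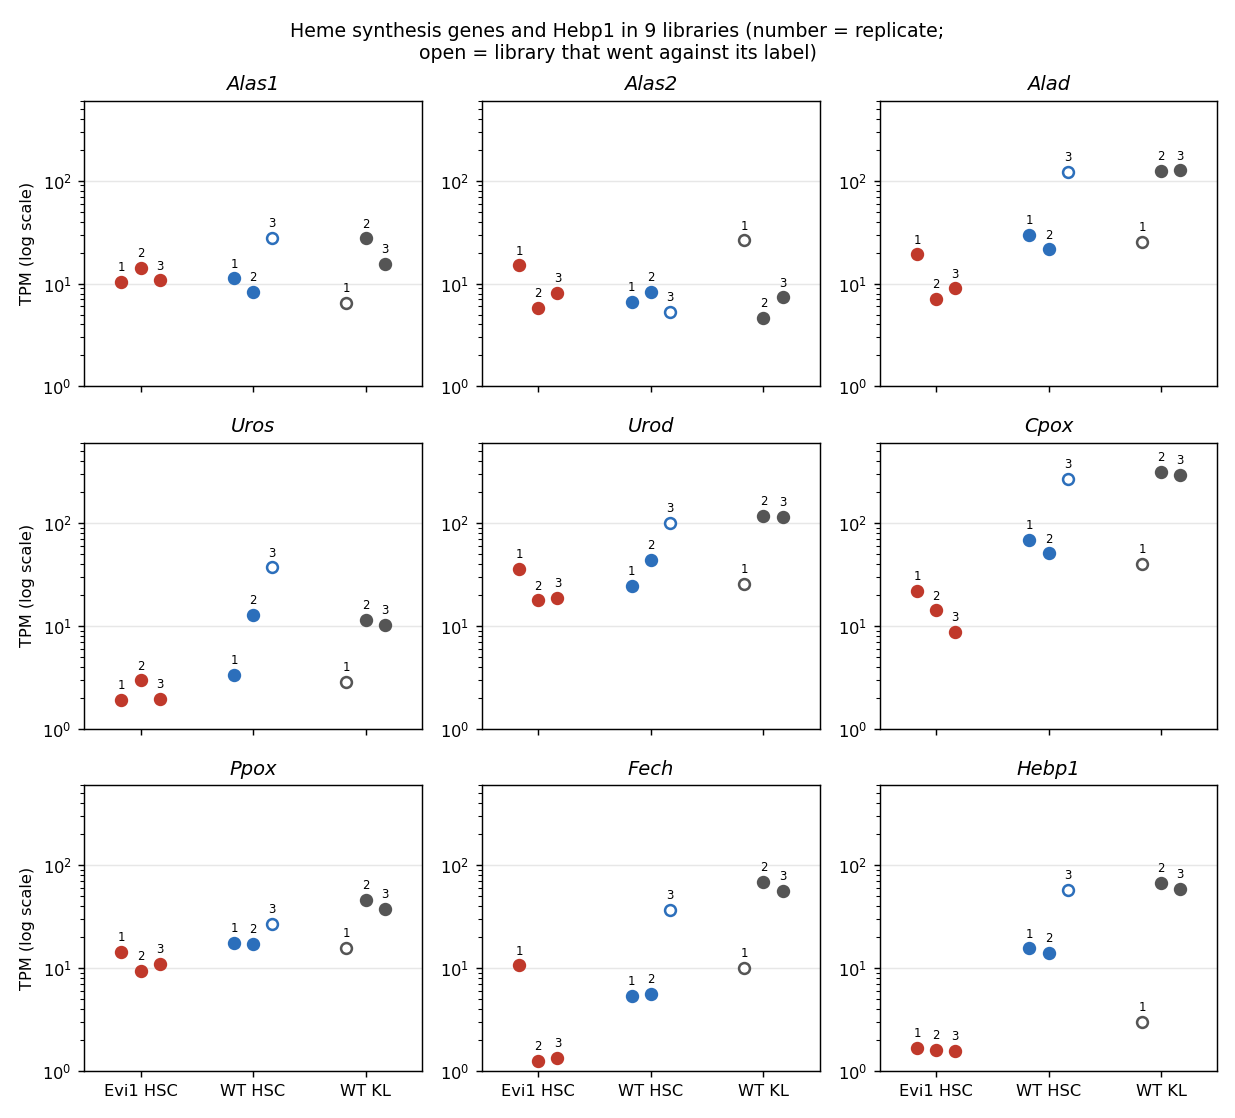
Level of each of the 9 genes in TPM on a log axis (vertical) in the 3 libraries of each group (horizontal), 1 point per library with its replicate number, open for the libraries that went against their labels. Cpox and Alad rise from Evi1 HSC (8.67 to 21.8 and 7.09 to 19.2 TPM) to WT KL 2 and 3 (294 to 313 and 125 to 126 TPM), whereas Alas2 shows no such order.

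Of the cytosolic steps, Alad, whose enzyme joins ALA molecules into porphobilinogen, had 19.2, 7.09 and 8.96 TPM across Evi1 HSC, 29.9 and 21.5 TPM for WT HSC 1 and 2, and 125 and 126 TPM for WT KL 2 and 3. Alad had 122 TPM for the library labelled WT HSC 3, and the library labelled WT KL 1 had 25.6 TPM. Every Evi1 HSC library lay below all 6 WT libraries, replicate 1 by a narrow margin. Uros, which closes the ring into uroporphyrinogen, was the lowest of the 3 cytosolic enzymes in every library, with 1.92, 2.95 and 1.95 TPM across Evi1 HSC, 3.32 and 12.7 TPM for WT HSC 1 and 2, and 11.3 and 10.3 TPM for WT KL 2 and 3. Uros had 37.0 TPM for the library labelled WT HSC 3, and the library labelled WT KL 1 had 2.84 TPM. As a ratio, WT HSC 1 and 2 differed more in Uros than in the other 8 genes. Urod, which trims the side chains of the ring, had 36.05, 17.7 and 18.6 TPM across Evi1 HSC, 24.6 and 43.9 TPM for WT HSC 1 and 2, and 116 and 114 TPM for WT KL 2 and 3. Urod had 100.0 TPM for the library labelled WT HSC 3, and the library labelled WT KL 1 had 25.6 TPM. Evi1 HSC and WT HSC overlapped in Urod, and Urod was the most abundant of the 9 genes in each Evi1 HSC library.

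Of the mitochondrial steps, Cpox, which oxidises coproporphyrinogen, had 21.8, 14.1 and 8.67 TPM across Evi1 HSC, 68.1 and 50.6 TPM for WT HSC 1 and 2, and 313 and 294 TPM for WT KL 2 and 3. Cpox had 268 TPM for the library labelled WT HSC 3, and the library labelled WT KL 1 had 40.0 TPM. Cpox was the highest of the 9 genes in all 6 WT libraries, and no group overlapped another in it among the 7. Ppox, which oxidises the ring to protoporphyrin, had 14.4, 9.36 and 10.999 TPM across Evi1 HSC, 17.7 and 17.3 TPM for WT HSC 1 and 2, and 46.5 and 37.6 TPM for WT KL 2 and 3. Ppox had 26.8 TPM for the library labelled WT HSC 3, and the library labelled WT KL 1 had 15.9 TPM. Its highest and lowest values were nearer to each other, as a ratio, than those of the other enzymes after ALAS. Fech had 10.6, 1.25 and 1.34 TPM across Evi1 HSC, 5.39 and 5.65 TPM for WT HSC 1 and 2, and 68.7 and 56.2 TPM for WT KL 2 and 3. Fech had 37.2 TPM for the library labelled WT HSC 3, and the library labelled WT KL 1 had 10.1 TPM. Evi1 HSC 1 stood apart from its group in Fech and overlapped WT HSC.

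Hebp1 varied little within Evi1 HSC, with 1.66, 1.59 and 1.57 TPM (mean 1.604 ± 0.0481, SD, n = 3). Its level was 15.5 and 14.0 TPM for WT HSC 1 and 2 (14.8 ± 1.11, SD, n = 2) and 67.2 and 59.2 TPM for WT KL 2 and 3 (63.2 ± 5.66, SD, n = 2). Hebp1 had 58.2 TPM for the library labelled WT HSC 3, and the library labelled WT KL 1 had 2.97 TPM. Every Evi1 HSC library lay below all 6 WT libraries.

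Evi1 HSC was set against WT HSC to compare stem cells that carry ectopic Evi1 with stem cells that share their surface markers. Among the 7 libraries, Hebp1 fell in Evi1 HSC by 2.60 (SE 0.15) on the scale of log2(TPM + 1), or 6.04-fold in TPM + 1. No other member passed the test. Cpox came next, 3.995-fold lower in TPM + 1 with an adjusted p of 0.12 in limma. The other later enzymes had lower means in Evi1 HSC by smaller amounts, and both ALAS isozymes had slightly higher ones.

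Hebp1 had an adjusted p of 0.00265 in limma, and 0.149% of the 19461 tested genes were called lower (0.0565% higher, 0.206% in either direction). At an unadjusted p under 0.05 were 5 of 9 members, beside 8.4% of tested genes. Cpox differed by −1.998 (SE 0.34, 95% interval −2.80 to −1.20), Uros by −1.25 (adjusted p = 0.53) and Alad by −1.17 (adjusted p = 0.469). Fech differed by −0.73 (adjusted p = 0.84), Ppox by −0.58 (adjusted p = 0.51) and Urod by −0.51 (adjusted p = 0.768). The differences of Alas1, 0.25 (95% interval −0.40 to 0.91), and Alas2, 0.23 (−0.66 to 1.13), had intervals that include 0. The members' median was −0.73, beside 0.00053 over all tested genes, and 7 of 9 were negative. Each Evi1 HSC library lay below each WT HSC library for 5 of the 9 genes (Alad, Uros, Cpox, Ppox and Hebp1), both among the 7 libraries, where 12.3% of tested genes did so, and among all 9 as labelled, where 6.76% did.

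Using all 9 libraries, 0 of 9 members were called between Evi1 HSC and WT HSC by limma, as were 0.00514% of tested genes. At an unadjusted p under 0.05 were 4 of 9 members, beside 4.66% of tested genes. Hebp1 then differed by −3.23 (SE 1.03, adjusted p = 0.791) and Cpox by −2.72 (SE 0.87, adjusted p = 0.791). Among the 7, the call of Hebp1 was lost when WT HSC 1 was left out (−2.52, adjusted p = 0.0549). Leaving out 1 of the 7 moved Fech between −1.50 (without Evi1 HSC 1, adjusted p = 0.0671) and −0.32 (without Evi1 HSC 2), and Uros between −2.08 (without WT HSC 1) and −0.42 (without WT HSC 2). Urod moved between −0.91 (without WT HSC 1) and −0.10 (without WT HSC 2). None of these was called.

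**Figure D2:**
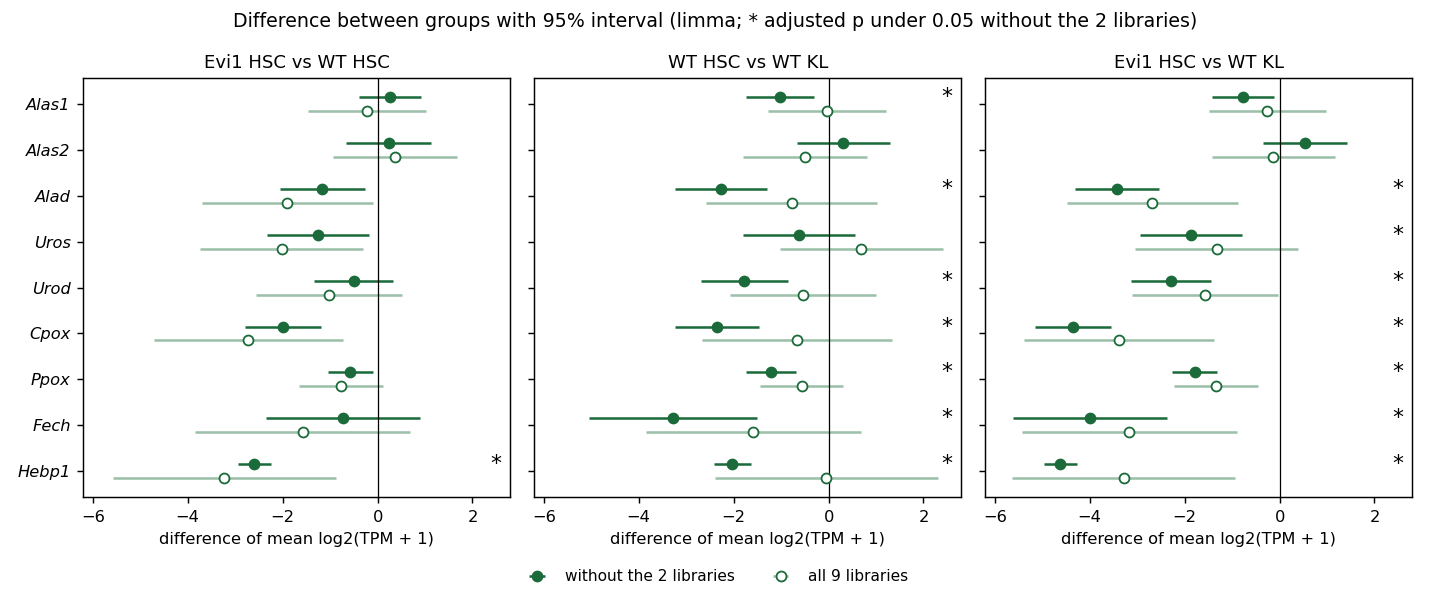
Difference of mean log2(TPM + 1) with its 95% interval (horizontal) for each gene (vertical) in the 3 comparisons, first group minus second, filled without the 2 libraries and open with all 9, a star marking an adjusted p under 0.05 without them. Hebp1 alone carries a star in the first panel (−2.60), and Alas2 carries none in any panel.

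WT HSC was set against WT KL to compare stem cells with progenitors of the same genotype. Without the 2 libraries, 7 of 9 members were lower in WT HSC, namely Alas1, Alad, Urod, Cpox, Ppox, Fech and Hebp1. Fech fell by 3.28 (SE 0.75, adjusted p = 0.0143), Cpox fell by 2.35 (SE 0.37, adjusted p = 0.00349) and Alad fell by 2.26 (SE 0.41, adjusted p = 0.00604) on the log2 scale. Alas2, at 0.31, and Uros, at −0.62, did not pass.

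Calls were common among all genes here, with 10.8% of tested genes called lower in WT HSC, 26.7% higher and 37.5% in either direction. Hebp1 fell by 2.03 (SE 0.16, adjusted p = 0.000259) and Urod fell by 1.78 (SE 0.39, adjusted p = 0.012). Ppox fell by 1.21 (SE 0.22, adjusted p = 0.00596) and Alas1 fell by 1.03 (SE 0.30, adjusted p = 0.0357). Alas2 had a 95% interval of −0.67 to 1.28 (adjusted p = 0.597), and Uros one of −1.80 to 0.56 (adjusted p = 0.365). The members' median was −1.78, beside 0.26 over all tested genes. Rescaling the libraries by their median ratio moved the latter to 0.02 and split the calls over all genes into 4293 higher and 3728 lower in WT HSC, against 5203 and 2104 without it, while the same 7 members were called. The groups did not overlap for those 7 members, beside 25.2% of tested genes in that direction.

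All 9 libraries together gave 0 of 9 members called between WT HSC and WT KL (limma), and 0 of 9 at an unadjusted p under 0.05. Their differences ran from −1.59 (Fech) to 0.69 (Uros), and no member had WT HSC wholly below WT KL, beside 1.94% of tested genes. Of tested genes 0.00514% were called, and 1.45% had an unadjusted p under 0.05. Among the 7 libraries, Alad, Cpox, Ppox and Hebp1 were called in all 7 fits that left out 1 more. Alas1 lost its call when Evi1 HSC 3, WT HSC 1, WT HSC 2 or WT KL 2 was left out (adjusted p up to 0.171), with only the compared groups fitted (0.0681) and with no filter on low values (0.0918). Fech lost its call without WT HSC 1, WT HSC 2, WT KL 2 or WT KL 3 (adjusted p up to 0.0769), and Urod without WT HSC 1, WT KL 2 or WT KL 3 (up to 0.0619). Fech also lost it with no filter (0.0591). Uros was −1.45 (adjusted p = 0.0202) without WT HSC 2 and 0.21 without WT HSC 1.

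Evi1 HSC and WT KL lay furthest apart in most members. Of the 9 members, 7 were lower in Evi1 HSC among the 7 libraries, Uros among them and Alas1 not. Hebp1 fell by 4.62 (SE 0.15, adjusted p = 1.08e-05), Cpox fell by 4.35 (SE 0.34, adjusted p = 0.000138), Fech fell by 4.001 (SE 0.68, adjusted p = 0.00348) and Alad fell by 3.43 (SE 0.38, adjusted p = 0.000552). Of all tested genes 14.3% were called lower, 31.3% higher and 45.5% in either direction.

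Urod fell by 2.29 (SE 0.35, adjusted p = 0.00228), Uros fell by 1.87 (SE 0.45, adjusted p = 0.0146) and Ppox fell by 1.78 (SE 0.20, adjusted p = 0.000605) against WT KL. Alas1 was at −0.77 (95% interval −1.43 to −0.12, adjusted p = 0.0574), and passed when WT KL 3 was left out (−1.16, adjusted p = 0.0279) or libraries were rescaled by median ratio (−1.05, adjusted p = 0.0174). Alas2 was at 0.54 (−0.36 to 1.43, adjusted p = 0.283). Uros lost its call without WT KL 2 or WT KL 3 (adjusted p up to 0.0824) and with no filter (0.056). The members' median was −2.29, beside 0.28 over all tested genes. Rescaling split the calls over all genes into 4919 higher and 4408 lower in Evi1 HSC, against 6087 and 2776 without it. Each Evi1 HSC library lay below each WT KL library for 8 of 9 members, all but Alas2, beside 22.9% of tested genes. This comparison shares the WT KL libraries with the preceding one, and the test of Evi1 HSC against WT HSC given above is the one between those groups.

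As labelled, with 9 libraries, 0 of 9 members were called between Evi1 HSC and WT KL (limma), as were 0.0103% of tested genes. At an unadjusted p under 0.05 were 6 of 9 members, beside 15.2% of tested genes. Alad, Cpox, Ppox and Hebp1, 4 of 9 members, had every Evi1 HSC library below every library labelled WT KL, beside 10% of tested genes. When the library labelled WT KL 1 alone was left out, 3 members were called, namely Cpox, Ppox and Hebp1, beside 0.493% of tested genes called in that fit (0.313% lower).

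The share of ALAS transcripts held by Alas2 (Alas2 TPM over the sum of both isozymes) does not move with the scaling of a library. It was 59.0, 28.7 and 42.9% across Evi1 HSC, 37.2 and 50.2% for WT HSC 1 and 2, and 14.4 and 32.1% for WT KL 2 and 3. The library labelled WT HSC 3 had 16.1%, and the library labelled WT KL 1 had 80.4%. As labelled, the means were 43.5 ± 15.2% for Evi1 HSC, 34.5 ± 17.2% for WT HSC and 42.3 ± 34.1% for WT KL (SD, n = 3 each). The exact two-sided permutation p was 0.5 between Evi1 HSC and WT HSC, 0.9 between WT HSC and WT KL, and 1 between Evi1 HSC and WT KL, and 1 for each after adjustment over the 3. A comparison of 3 against 3 libraries cannot give a p below 0.1. Among the 7 libraries the means were 43.5, 43.7 and 23.2% in the order Evi1 HSC, WT HSC and WT KL.

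**Figure D3:**
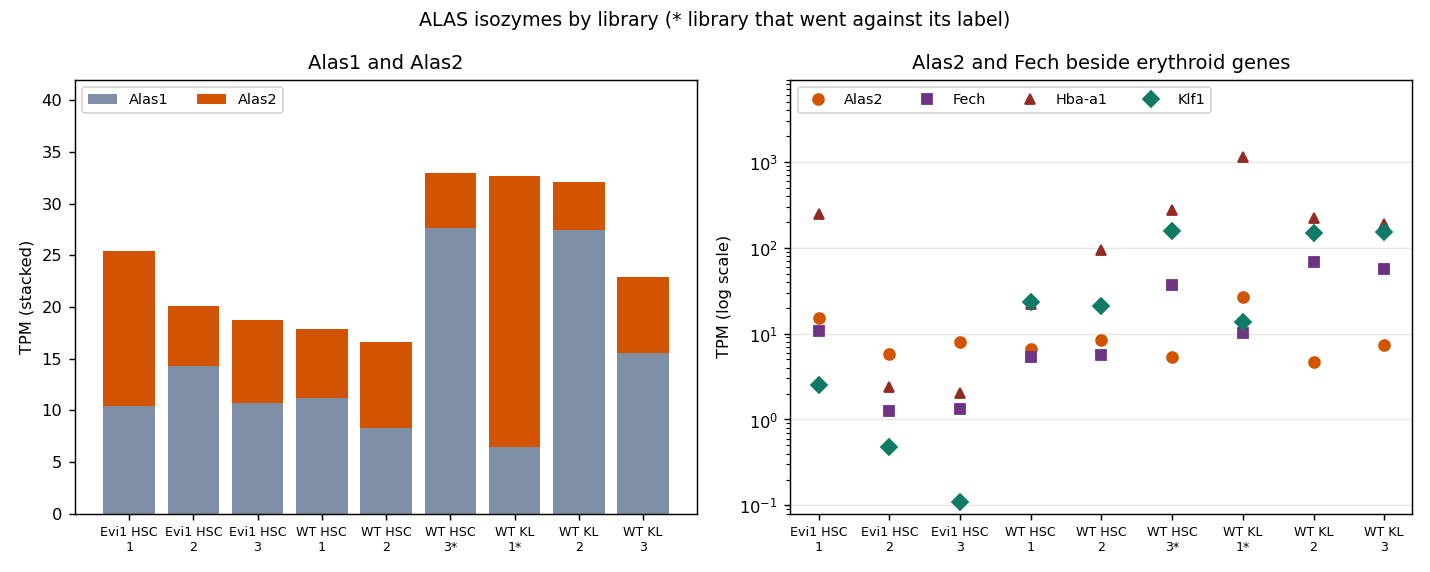
Left, TPM of Alas1 and Alas2 stacked for each of the 9 libraries (bars from 0), and right, TPM of Alas2, Fech, the alpha globin Hba-a1 and the transcription factor Klf1 on a log axis, 1 point per gene and library, a star marking the libraries that went against their labels. Alas2 is highest in the library labelled WT KL 1 (26.3 TPM) and in Evi1 HSC 1 (15.04 TPM), which also hold more Hba-a1 (1146 and 244 TPM) than Evi1 HSC 2 and 3 and WT HSC 1 and 2.

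The balance between the first step and the later ones was also set out by library. The summed TPM of Alad, Uros, Urod, Cpox, Ppox and Fech was 104, 52.4 and 50.5 across Evi1 HSC, 149 and 152 for WT HSC 1 and 2, and 681 and 639 for WT KL 2 and 3. Per TPM of ALAS (both isozymes) this was 4.08, 2.61 and 2.69 across Evi1 HSC, 8.33 and 9.11 for WT HSC 1 and 2, and 21.2 and 27.9 for WT KL 2 and 3. These 3 ranges did not overlap. The library labelled WT HSC 3 had a ratio of 17.9, and the library labelled WT KL 1 had one of 3.67. The ratio was formed after the values were seen and was not tested.

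Alas2 and Fech were high together in Evi1 HSC 1 and the library labelled WT KL 1, relative to the other 4 libraries with Mecom at 90.8 TPM or more. Genes of late red cell formation were high there too. Hba-a1, an alpha globin, had 244 and 1146 TPM there, 2.40 and 2.03 TPM for Evi1 HSC 2 and 3, and 22.2 and 94.4 TPM for WT HSC 1 and 2. Slc4a1, the anion exchanger of the red cell membrane, had 14.8 and 19.1 TPM there, was at 0.0892 TPM for Evi1 HSC 2, listed at 0 for Evi1 HSC 3, and had 0.221 and 0.738 TPM for WT HSC 1 and 2. Alb, the hepatocyte albumin, had 3.18 and 10.4 TPM there and 0.0344 to 0.715 TPM over the other 7 libraries. The 8 hepatocyte markers summed to 13.9 and 36.4 TPM there and to 2.52 to 21.4 TPM elsewhere. The part of such RNA in the Alas2 and Fech values was not tested.

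Klf1 and Gata1 did not share this pattern. Klf1 had 2.51, 0.474 and 0.110 TPM across Evi1 HSC, 23.1 and 21.1 TPM for WT HSC 1 and 2, and 147 and 151 TPM for WT KL 2 and 3. Klf1 had 155 TPM for the library labelled WT HSC 3, and the library labelled WT KL 1 had 13.6 TPM. Klf1 was thus ordered like Cpox and Hebp1, with no overlap between groups among the 7 libraries. Gata1 had 2.79 to 4.20 TPM across Evi1 HSC, 17.3 and 18.2 TPM for WT HSC 1 and 2, and 107 and 118 TPM for WT KL 2 and 3. Between Evi1 HSC and WT HSC among the 7 libraries, 2 of 9 erythroid transcription factors were called lower in Evi1 HSC, beside 0.149% of tested genes. In limma Klf1 fell by 3.69 (adjusted p = 0.043) and Gata1 fell by 2.04 (adjusted p = 0.0182), none rose and 7 were not called. The list's median was −0.18.

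Between WT HSC and WT KL, 4 of these factors were lower and 3 higher in WT HSC, with adjusted p of 0.000197 to 0.0385 in limma. Of tested genes 10.8% were lower and 26.7% higher, so the share of factors called higher was near that of all genes. Klf1 fell by 2.704, Gata1 fell by 2.60, Gfi1b fell by 1.83 and Zfpm1 fell by 0.54. Gata2, a factor of early progenitors, was higher by 2.41, Nfe2 by 1.15 and Lmo2 by 1.13. As labelled, with 9 libraries, 0 of the 9 factors were called in either comparison (limma), with 3 and 0 at an unadjusted p under 0.05.

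Of 9 erythroid markers, 1 was called lower in Evi1 HSC than in WT HSC among the 7 libraries, beside 0.149% of tested genes. It was Ermap, which fell by 4.35 (limma, adjusted p = 0.0313). In WT HSC against WT KL, 6 were lower and 1, the beta globin Hbb-bt, was higher (10.8% and 26.7% of tested genes). The 9 erythroid markers summed to 708 to 1738 TPM over Evi1 HSC. They summed to 701 to 1249 TPM over the libraries labelled WT HSC and to 1125 to 3524 TPM over those labelled WT KL. Hbb-bt made up most of the sum in each of the 6 libraries with Mecom at 90.8 TPM or more. It had 681 to 1429 TPM across Evi1 HSC, 545 and 619 TPM for WT HSC 1 and 2, and 187 and 165 TPM for WT KL 2 and 3. In Evi1 HSC against WT KL among the 7 libraries, 6 of the 9 were called lower and 1 higher (14.3% and 31.3% of tested genes). Ermap was listed at 0 for Evi1 HSC 2 and 3, and Slc4a1 for Evi1 HSC 3. Of 7 granulocyte markers, 6 were lower in WT HSC than in WT KL, beside 10.8% of tested genes. The granulocyte markers summed to 24.9 to 39.6 TPM over the 6 libraries with Mecom at 90.8 TPM or more, where Ctsg, S100a8 and S100a9 were listed at 0. Over the other 3 they summed to 607 to 2062 TPM. Of 6 macrophage markers the 1 tested, Cd68, was higher by 1.16 in WT HSC than in WT KL (adjusted p = 0.0129) and by 1.54 in Evi1 HSC than in WT KL (adjusted p = 0.00219), and the list summed to 7.69 to 12.04 TPM over those 6 libraries and to 3.03 to 5.06 TPM over the other 3. C1qa, C1qb and C1qc stayed at or below 0.921 TPM in all 9 libraries, Adgre1 at or below 1.39 TPM and Vcam1 at or below 2.05 TPM.

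Markers of the remaining cell types also differed from WT KL among the 7 libraries. Calls were common there, with 26.7% of tested genes higher and 10.8% lower in WT HSC than in WT KL. For Evi1 HSC against WT KL these shares were 31.3% and 14.3%. Of 6 endothelial markers, 4 were higher in WT HSC and 6 in Evi1 HSC, and their sum was 74.3 to 141 TPM over the 6 libraries with high Mecom and 3.54 to 5.28 TPM over the other 3. All 8 stem cell markers were higher in both, with sums of 632 to 781 TPM against 7.58 to 9.79 TPM. Mecom and Ly6a are among these 8 and were used to set libraries aside, so their own difference follows from that choice. Higher in both were also 3 of the 4 megakaryocyte markers tested, with sums of 31.3 to 58.2 TPM against 7.79 to 9.46 TPM. The mast cell gene Cpa3, the 1 tested of 4 mast cell and basophil markers, fell by 3.10 in WT HSC (adjusted p = 0.00046) and fell by 3.06 in Evi1 HSC (adjusted p = 0.00021). Apart from Ermap, no marker of these cell type lists was called between Evi1 HSC and WT HSC. As labelled, with 9 libraries, none was called in any of the 3 comparisons (limma), while 5, 0 and 7 of the 9 erythroid, 0, 0 and 1 of the 7 granulocyte and 2, 0 and 5 of the 6 endothelial markers had an unadjusted p under 0.05. The part of such cells in the heme gene values was not tested.

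Of the other genes of the heme route, 12 and 13 of 21 were called lower in the comparisons with WT KL among the 7 libraries. The list held 22 genes, mostly for substrate supply and porphyrin or heme transport, and 21 passed the filter of 1 TPM in 3 libraries. With 7 libraries, 12 fell in WT HSC against WT KL, none rose and 9 were not called (10.8% of tested genes were called lower). Of the 21 differences 4 were positive, the highest that of Slc25a39, a mitochondrial carrier, at 0.45 (adjusted p = 0.283), named after its value was seen. The list had a median of −1.11 beside 0.26 over all tested genes. Tspo2, an erythroid relative of the porphyrin-binding protein Tspo, fell by 2.93 (adjusted p = 0.00137), and Abcb6, a porphyrin transporter, fell by 2.12 (adjusted p = 0.002). Tmem14c, which serves porphyrin transport in mitochondria, fell by 1.86 (adjusted p = 0.00298). In Evi1 HSC against WT KL 13 fell, none rose and 8 were not called, with a median of −1.12 (14.3% of tested genes were called lower). Tspo2 fell by 4.95 (adjusted p = 7.8e-05), Slc25a38, which brings glycine into the mitochondrion, fell by 2.59 (adjusted p = 0.000204) and Tmem14c fell by 2.59 (adjusted p = 0.000364).

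Between Evi1 HSC and WT HSC 0 of these 21 genes were called (limma), 8 had an unadjusted p under 0.05, and the median was −0.42 beside 0.00053 over all tested genes. As labelled, with 9 libraries, 0 of 21 were called in each of the 3 comparisons (limma), with 2, 1 and 10 at an unadjusted p under 0.05.

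**Figure D4:**
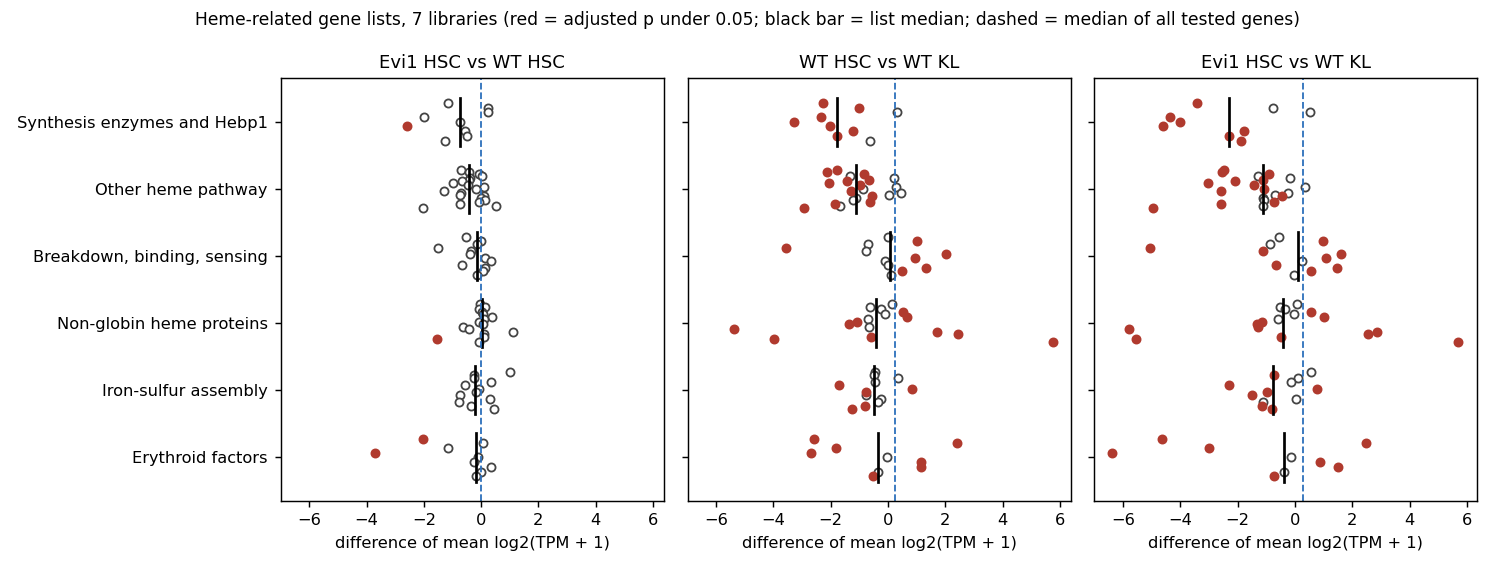
Difference of mean log2(TPM + 1) without the 2 libraries (horizontal) for each tested gene of 6 lists (vertical), first group minus second, red where the adjusted p was under 0.05, with a black bar at the list's median and a dashed line at the median of all tested genes. The synthesis enzymes with Hebp1 have medians of −0.73, −1.78 and −2.29 from left to right, and the breakdown, binding and sensing genes lie on both sides of 0.

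Of 14 genes for heme breakdown, binding and sensing 12 were tested, and among the 7 libraries 5 were higher and 1 lower in WT HSC than in WT KL, beside 26.7% and 10.8% of tested genes. The share called lower was near that of all genes, and 6 were not called. Hmox1, the inducible heme oxygenase that opens the heme ring, was higher in WT HSC by 2.02 (adjusted p = 0.0155), and Hmox2, the constitutive one, by 0.95 (adjusted p = 0.00262). Bach1, a repressor that heme inactivates, was higher by 1.01 (adjusted p = 0.00445), and Nr1d2, a nuclear receptor that binds heme, by 1.32 (adjusted p = 0.00553). Blvrb, a biliverdin reductase, fell by 3.55 (adjusted p = 0.0132). The WT KL libraries lay far apart in Blvrb, with 206 TPM for WT KL 2 and 30.2 TPM for WT KL 3, beside 6.88 and 4.96 TPM for WT HSC 1 and 2. Between Evi1 HSC and WT HSC 0 of 12 were called (limma), and 1 had an unadjusted p under 0.05. Hebp2, a relative of Hebp1, stayed at or below 0.370 TPM in all 9 libraries and was not tested.

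Of 16 non-globin heme proteins tested, 5 were higher and 5 lower in WT HSC than in WT KL among the 7 libraries, beside 26.7% and 10.8% of tested genes, so the share called higher was near that of all genes. The higher ones included Tbxas1 (5.76), Ptgs1 (2.45), Nos3 (1.72) and Cyba (0.65), and the lower ones Mpo (−5.37), Steap3 (−3.99), Cycs (−1.38) and Cyc1 (−1.09), with adjusted p of up to 0.0354. Steap3, an iron reductase of erythroid precursors, was the 1 of these 16 called between Evi1 HSC and WT HSC, beside 0.206% of tested genes. It had 0.324, 0.311 and 0.225 TPM across Evi1 HSC and 2.98 and 2.58 TPM for WT HSC 1 and 2, and fell by 1.55 on the log2 scale (adjusted p = 0.0387).

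Of 12 genes for iron-sulfur cluster assembly, which supplies the cluster that Fech carries, 4 were lower and 1 was higher in WT HSC than in WT KL among the 7 libraries, beside 10.8% and 26.7% of tested genes. Glrx5 fell by 1.72, Nfs1 fell by 1.27, Lyrm4 fell by 0.79 and Hspa9 fell by 0.76, and Hscb was higher by 0.82 (adjusted p of 0.000411 to 0.0168). Between Evi1 HSC and WT HSC 0 of the 12 were called (limma), and 3 had an unadjusted p under 0.05. As labelled, with 9 libraries, no gene of this list or the preceding pair of lists was called in these 2 comparisons by limma, and 0 to 1 gene per list and comparison had an unadjusted p under 0.05.

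Patterns across the 9 libraries were compared over 8745 genes whose mean was 5 TPM or more. The libraries separate into high and low ones, so each Pearson r of log2(TPM + 1) over the 9 is a description that rests on that separation. Closest to Hebp1 were Sphk1 (sphingosine kinase, r = 0.997), Sh2d4a (0.996), the iron exporter Slc40a1 (0.994), Prss50 (0.992) and Hesx1 (0.990). Sphk1 had 0.171, 0.0862 and 0.0396 TPM across Evi1 HSC, 5.01 and 4.22 TPM for WT HSC 1 and 2, and 29.999 and 29.3 TPM for WT KL 2 and 3. Closest to Alas2 were Slc35c1 (r = 0.951), Sppl2a (0.934), Pbrm1 (0.913), Arih2 (0.898) and Ctdspl (0.895). Like Alas2, these genes were highest in the library labelled WT KL 1 and next highest in Evi1 HSC 1. Slc35c1 ran only from 18.6 to 25.1 TPM, Sppl2a from 16.3 to 27.5 TPM and Pbrm1 from 29.2 to 43.6 TPM, beside 4.63 to 26.3 TPM for Alas2. Ctdspl had 23.9 TPM for Evi1 HSC 1, 24.1 TPM for the library labelled WT KL 1, and 2.75 to 8.63 TPM over the other 7.

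By GENCODE M21 (GRCm38), Alas1 lies on chromosome 9 from 106233455 to 106248654 (minus strand), where 465 of 6174 exonic bases overlap the antisense gene 4930500F10Rik. Alas2 lies on chromosome X from 150547375 to 150570638 (plus strand), where 372 of 2403 exonic bases overlap Apex2 and Mir3620 on the other strand. Ppox lies on chromosome 1 from 171275990 to 171281186 (minus strand), where 791 of 4515 exonic bases overlap B4galt3 on the other strand. Cpox lies on chromosome 16 from 58670292 to 58717636 (plus strand), where 204 of 6661 exonic bases overlap Gpr15 on the other strand. Hebp1, on the minus strand of chromosome 6, runs from 135137522 to 135198022, where 46 of 3711 exonic bases overlap Fam234b on the other strand. No source used here says whether counting used strand, so the values of these 5 genes are less certain. Alad (chromosome 4, 62509169 to 62519918), Urod (chromosome 4, 116989965 to 116994413), Uros (chromosome 7, 133686243 to 133710072) and Fech (chromosome 18, 64452914 to 64490251), all on the minus strand, overlap no exon of another gene.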

How the data were processed

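The values are TPM per gene, computed by the authors and deposited with 1 library per file, per the file headers. The column of WT HSC replicate 2 is headed C_H3, which no label explains, and was used as TPM because its sum and range resemble those of the other 8. The submitters' processing notes name HISAT2, StringTie and the build mm10. Their roles, versions and the annotation have no source here. The listed genes hold 56.9 to 63.8% of each library's TPM total.

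Here, log2(TPM + 1) was fitted with limma 3.58.1 in R 4.3.3, with 1 mean per group, a trend in the prior variance and Benjamini-Hochberg adjustment over the 19461 genes that reached 1 TPM in 3 or more libraries. All 9 members passed this filter. Calls required an adjusted p under 0.05. The scale understates changes of low genes. The 3 comparisons were fitted with 9 and with 7 libraries, and the code was tested on simulated data. Alternatives changed the pseudocount (0.1), the filter (none, 5 TPM), scaling, trend, the groups in the fit, a replicate block and single libraries. All members were named, with called genes of each other list (up to 4 per direction outside Evi1 HSC against WT HSC) and the 5 genes most like Hebp1 and Alas2 in pattern. Predicted and clone-named genes were left out. Some list genes within this rule are not reported here by name. The members and lists were chosen with earlier results of these data known. Promoter windows came from RefSeq (GRCm38.p6).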

Additional observations from a re-analysis of the deposited data

How the results depend on the processing

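Leaving out the libraries labelled WT HSC replicate 3 and WT KL replicate 1 moved the number of members called from 0 to 1 between Evi1 HSC and WT HSC, from 0 to 7 between WT HSC and WT KL and from 0 to 7 between Evi1 HSC and WT KL. With all 9 libraries, leaving out 1 gave 0 to 0, 0 to 0 and 0 to 3 members in that order, the 3 being without the library labelled WT KL replicate 1. With the 7 libraries, leaving out 1 more of them gave 0 to 1, 4 to 7 and 6 to 7 members. The lone library left in a WT group is then assumed to vary like the other groups. The other settings gave 1 member in the first comparison of the 7 libraries, except 0 with a replicate block (Hebp1 −2.56, adjusted p = 0.0848), and 5 to 7 and 6 to 8 in the others. The block also ended the call of Alas1 between WT HSC and WT KL (−1.21, adjusted p = 0.0539) and no other member's. Whether replicate numbers pair the libraries was not settled. Deviations from group means of same-numbered libraries correlated at −0.0619 to −0.00657 in 5 pairs of the 7 libraries and at −0.636 to 0.704 in 9 pairs of all 9. Among the 7, the deviations within a WT group mirror each other, so these values cannot decide it.

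Without the 2 libraries the direction turned for Alas1 in Evi1 HSC against WT HSC (0.25), for Alas2 between WT HSC and WT KL (0.31) and between Evi1 HSC and WT KL (0.54), and for Uros in WT HSC against WT KL (−0.62). With a pseudocount of 0.1 Hebp1 in WT HSC against WT KL was 0.022 over 9 libraries. None of these was called. With 1 of 9 libraries left out, Alas1 ran from −0.56 to 0.25, from −0.55 to 0.42 and from −0.77 to 0.20 in the 3 comparisons. Over WT HSC against WT KL, Alas2 ran from −0.97 to 0.16, Uros from −0.079 to 1.49 and Hebp1 from −1.39 to 0.66, and Alas2 in Evi1 HSC against WT KL from −0.60 to 0.54. With 1 of 7 left out, Alas2 in Evi1 HSC against WT HSC ran from −0.11 to 0.51 and Uros in WT HSC against WT KL from −1.45 to 0.21. The difference in the Alas2 share of ALAS turned from 9.02 to −0.160 percentage points in Evi1 HSC against WT HSC and from −7.77 to 20.5 in WT HSC against WT KL without the 2 libraries. With 1 library left out it ran from −0.160 to 16.8, from −21.7 to 11.3 and from −12.7 to 20.3 in the 3 comparisons. The cause of these changes was not tested. TPM keeps no depth, so no counting error could be given.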
